A study of Bos taurus with 5 samples.

Results

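The genes described are those for the subunits, activators and assembly chaperones of the proteasome in early cattle embryos. They were chosen by name alone, as every row of the deposited gene table whose symbol starts with PSM, a letter from A to G and a digit. The rule found 50 of 27607 genes, with 8 in the core alpha group (PSMA), 11 in the core beta group (PSMB) and 7 named as base ATPases (PSMC). A further 14 are in the group of the lid, other regulatory subunits and base chaperones (PSMD). The rest are 5 named as activators (PSME), the regulator PSMF1 and 4 assembly chaperones (PSMG). Of the 50, 2 share the naming pattern without being subunits, activators, regulators or chaperones of the proteasome. PSMC3IP, also known as HOP2, acts in meiotic recombination, and PSME3IP1 is a protein that binds the activator PSME3.

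The study, on the effect of the sire, compared cattle embryos sired by bulls of a low-performing class with embryos sired by bulls of a high-performing class, at the 4-cell stage per the sample labels and over a range of 2 to 4 cells per the series text. RNA was sequenced from 2 low-performing (LP) pools and 3 high-performing (HP) pools of 100 embryos each, all developed in vitro. The labels' treatment protocol names the addition of recombinant Wnt5A for all 5 pools alike, with no dose, and the labels neither define performance nor say whether pools came from separate bulls, fertilisations or cultures. The p-values therefore rest on how far these pools differ among themselves, and that difference may be technical. Levels are RPKM, read numbers scaled by the length of the gene and by the reads of the pool, so they can be compared between genes. Fold changes are LP minus HP on the log2(RPKM + 1) scale, which understates the change of low genes, and come from a limma fit of the 12448 genes that reached 1 RPKM in 2 or more pools.

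The proteasome degrades proteins that carry ubiquitin chains. Its core particle is a barrel of alpha rings, which gate the entrance, and beta rings, which hold the proteolytic sites on PSMB6, PSMB7 and PSMB5. A regulatory particle docks on the end of the barrel: its base unfolds the substrate with a ring of ATPases, and its lid removes the ubiquitin. In eggs and cleaving embryos the proteasome takes down maternal proteins and drives exit from M phase, while most of the mRNA present was made before ovulation.

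The pools did not fall into 2 even groups, and this bears on every value that follows. Over all genes tested, the log2 difference between LP pool 1 and HP pool 1 had an SD of 0.221, below that of every pair of HP pools (0.225 to 0.276). LP pool 2 stood apart, with an SD of 0.571 to 0.734 against the HP pools and of 0.429 against LP pool 1. Reads in genes came to 98684834 and 93659589 in LP pools 1 and 2 and to 113100809, 67248924 and 90237317 in HP pools 1, 2 and 3. All 8 oocyte and embryo markers were detected in every pool and summed to 17480 and 23720 RPKM in LP pools 1 and 2 and 14550, 10270 and 12570 RPKM in HP pools 1, 2 and 3, with BTG4 at 6021 RPKM or more and ZAR1 at 486.7 RPKM or more. Most of each sum is BTG4, with 11820 and 16940 RPKM in the LP pools and 9357, 6021 and 7752 RPKM in the HP pools. BTG4, NPM2, OOEP, ZP3 and ZAR1 were highest in LP pool 2, then LP pool 1, then HP pool 1. NPM2 had 616 and 1303 RPKM in the LP pools and 459, 263 and 335 RPKM in the HP pools. BMP15 and GDF9 were highest in LP pool 1, and KPNA7 overlapped between the groups. The part of these markers in the differences of the proteasome genes was not tested. The summed level of 8 blood and immune markers was 17.0 to 19.4 RPKM in the LP pools and 16.3 to 18.9 RPKM in the HP pools, with the haemoglobin gene HBB at 0 throughout. Most of each blood and immune sum is CSF1R. For 10 cumulus and granulosa markers the sums were 189 to 191 RPKM in the LP pools and 191 to 210 RPKM in the HP pools. Most of each of these sums is STAR, with 158.7 and 158.4 RPKM in the LP pools and 170.3, 146.7 and 170.6 RPKM in the HP pools. The sums therefore say little of the other markers. HAS2, INHBA and CYP19A1 were lower in both LP pools than in every HP pool, and the rest of the list overlapped between the groups. Sperm markers summed to less than 1 RPKM in every pool, and PRM2 and TNP1 were at 0. RNA from pooled embryos cannot tell fewer cells or embryos with a transcript from less of it per cell.

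Messenger RNAs of most core subunits and of the assembly chaperones were more abundant in both LP pools than in the HP pools, those of the base and lid stood closer to their HP levels, and the activator PSME4 was less abundant. Over the 49 members above the filter on low values, the median log2 fold change was 0.43, against a median of -0.03 over all genes tested. By the same measure 42 lay above 0 and 7 below, where 46.7% of all genes tested lay above 0 and 53.3% below. In limma with Benjamini-Hochberg adjustment over all genes, 0 members passed an adjusted p of 0.05, as did 0% of all genes in either direction. The lowest adjusted p of a member was 0.0829, which was also the lowest of any gene. At an unadjusted p under 0.05, 32 members stood higher and 1 lower in the LP pools, against 19% and 15.9% of all genes. At an adjusted p under 0.1 in limma these were 23 and 1, against 13.4% and 7.96% of all genes. The mean RPKM was at least 2-fold higher in the LP pools for 7 members and at least 2-fold lower for 1, against 5.81% and 1.14% of all genes. Both LP pools lay above every HP pool for 37 of the 49, where 29.4% of all genes did so, and below every HP pool for 3, where 29.3% did. LP pool 2 was the highest of the 5 pools for 39 members, where 33.8% of all genes had that order. The median over the members was 0.30 without LP pool 2 and 0.73 without LP pool 1. Without LP pool 1, 32 members were higher and 1 was lower at an adjusted p under 0.05, but so were 19.8% and 23.9% of all genes, and the lone LP pool is then assumed to vary as the HP pools do. The only member under the filter was PSMB11.

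**Figure D1:**
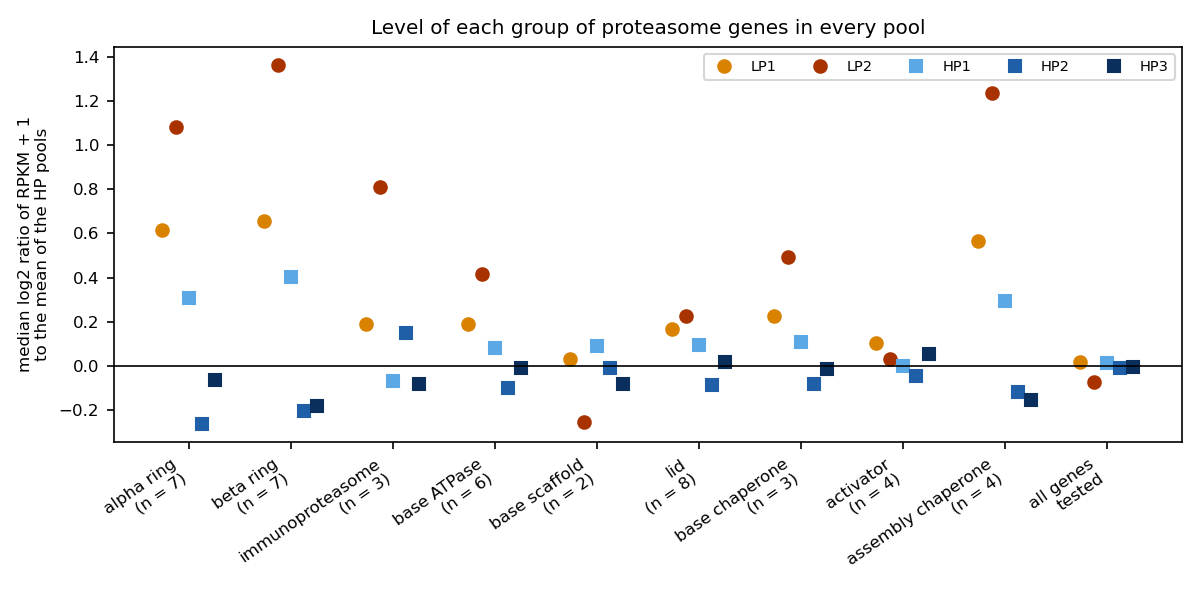
Each point is the median, over the tested genes of a group, of the log2 ratio of RPKM + 1 in a pool to the mean of the HP pools, with circles for the LP pools, squares for the HP pools and the number of genes under each group. LP pool 2 is highest for the alpha ring (1.08), the beta ring (1.36) and the assembly chaperones (1.23), LP pool 1 lies between it and HP pool 1, and the base scaffold, lid and activators stay between -0.25 and 0.23.

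Of the alpha ring, PSMA5 was the most abundant member of all, with 688 and 1069 RPKM in LP pools 1 and 2 and 588, 361 and 424 RPKM in HP pools 1, 2 and 3. Both LP pools lay above every HP pool, as in 29.4% of all genes tested, and the nearest neighbours were LP pool 1 and HP pool 1. Its log2 fold change was 0.93 ± 0.26 (SE; limma, adjusted p = 0.0837). PSMA7, the second most abundant member, had 392 and 595 RPKM in the LP pools and 308, 206 and 238 RPKM in the HP pools, a log2 fold change of 0.96 ± 0.24 (SE). PSMA6 had 250 and 379 RPKM in the LP pools and 190, 134 and 159 RPKM in the HP pools, a log2 fold change of 0.95 ± 0.22 (SE). In these genes, and likewise in PSMA3 and PSMA4, the order of the pools was the same at the top: LP pool 2, LP pool 1, then HP pool 1. The log2 fold change was 0.89 ± 0.24 (SE) for PSMA3 and 0.78 ± 0.21 (SE) for PSMA4.

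The remaining alpha subunits, PSMA1 and PSMA2, are obligate parts of every core particle but were listed at a small share of the level of their partners. PSMA1 (in ARS-UCD1.2 on the plus strand of chromosome 15, from 38213868 to 38226753) had 1.33 and 3.48 RPKM in the LP pools and 2.0, 2.05 and 1.41 RPKM in the HP pools, which overlap. These values rest on 152 and 376 reads in the LP pools and 261, 159 and 147 reads in the HP pools. PSMA2 had 1.70 and 3.14 RPKM in the LP pools and 1.71, 1.32 and 0.66 RPKM in the HP pools, again with overlap. The ratio of PSMA5 to PSMA1 in RPKM was 516 and 308 in the LP pools and 294, 177 and 301 in the HP pools. Of the 1439 bases of PSMA2, 185 are shared on the same strand with the gene listed as C4H7orf25, and PSMA1 shares none with another gene in the table. The log2 fold change of PSMA1 was 0.21 ± 0.27 (SE), with -0.26 when LP pool 2 was left out and -0.10 once a trend with length was taken off. PSMA8, the form of the PSMA7 position found in mammalian testis, had 5.11 and 6.52 RPKM in the LP pools and 4.10, 2.11 and 3.15 RPKM in the HP pools. Its ratio to PSMA7 was 0.0131 and 0.0110 in the LP pools and 0.0133, 0.0103 and 0.0132 in the HP pools, which overlap, so both genes of that position stood in the same proportion in the groups within their spread.

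**Figure D2:**
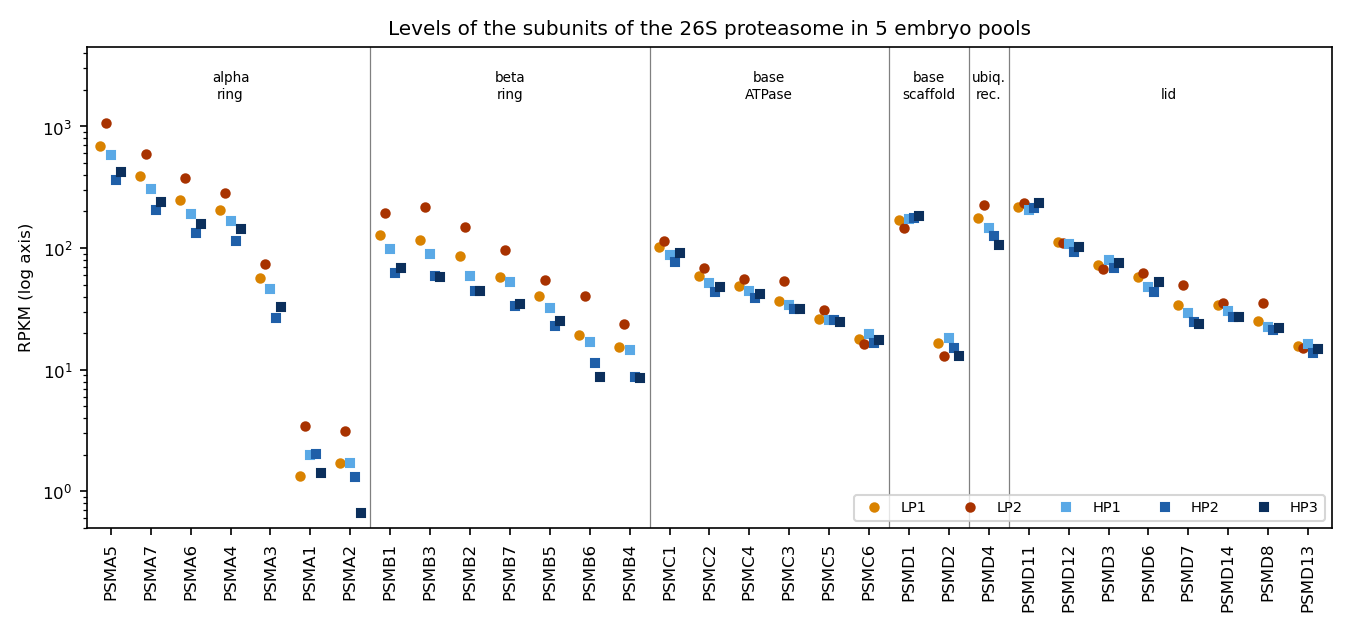
RPKM on a log axis of the standard subunits of the core particle, base and lid that have a PSM name, which leaves out SEM1 and ADRM1. Genes are ordered by level within each group, with circles for the LP pools and squares for the HP pools. PSMA1 and PSMA2 lie between 0.66 and 3.48 RPKM in all pools, under every other subunit shown, and the LP circles lie above the HP squares for the other alpha and all beta subunits.

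The beta ring showed the highest median fold change of the groups, 1.07 over 7 genes, with all 7 higher in both LP pools than in every HP pool, an order found for 29.4% of all genes tested. PSMB2 had 86.8 and 150 RPKM in the LP pools and 59.4, 44.1 and 44.7 RPKM in the HP pools, a log2 fold change of 1.204 ± 0.25 (SE; limma, adjusted p = 0.0829). It had the smallest unadjusted p of any member, 0.0016 in limma. PSMB3 had 117 and 219 RPKM in the LP pools and 89.9, 59.5 and 58.2 RPKM in the HP pools, a log2 fold change of 1.23 ± 0.30 (SE). In both genes LP pool 2 was well above the rest, and LP pool 1 was nearer to HP pool 1 than to LP pool 2.

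All 3 proteolytic subunits lay above their HP range in both LP pools, as did 29.4% of all genes tested. PSMB6, which cuts after acidic residues, had 19.5 and 40.1 RPKM in the LP pools and 17.1, 11.4 and 8.78 RPKM in the HP pools, a log2 fold change of 1.16 ± 0.34 (SE). PSMB7, which cuts after basic residues, had 57.9 and 95.9 RPKM in the LP pools and 53.0, 33.5 and 34.7 RPKM in the HP pools, a log2 fold change of 0.90 ± 0.27 (SE). PSMB5, which cuts after hydrophobic residues and is the site bound by the drug bortezomib, had 40.1 and 54.3 RPKM in the LP pools and 32.4, 22.8 and 24.9 RPKM in the HP pools. Its log2 fold change was 0.80 ± 0.20 (SE), 0.58 without LP pool 2. Of the subunits without a proteolytic site, PSMB1 stood at 1.07 ± 0.25 (SE) and PSMB4 at 0.83 ± 0.27 (SE) on the same scale.

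Cells that respond to interferon, and cells of the immune system, replace these catalytic subunits with PSMB9, PSMB10 and PSMB8. All 3 replacements were low in the embryos. PSMB9 (on the plus strand of chromosome 23, from 7186813 to 7193342) had 5.41 and 12.6 RPKM in the LP pools and 3.13, 3.81 and 3.09 RPKM in the HP pools, from 398 and 878 reads in the LP pools and 264, 191 and 208 reads in the HP pools. Its log2 fold change was 1.11 ± 0.29 (SE; limma, adjusted p = 0.0829), and 0.57 without LP pool 2. PSMB8, its neighbour on the chromosome, had 3.75 and 5.18 RPKM in the LP pools and 3.10, 3.36 and 3.06 RPKM in the HP pools, a log2 fold change of 0.38 ± 0.15 (SE). PSMB10 had 0.65 and 1.91 RPKM in the LP pools and 0.45, 1.27 and 0.39 RPKM in the HP pools, with overlap, and its log2 fold change of 0.40 ± 0.29 (SE) was -0.0042 without LP pool 2.

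Set against the standard subunit of the same position, the inducible forms gave these ratios. The ratio of PSMB9 to PSMB6 was 0.278 and 0.314 in the LP pools and 0.184, 0.333 and 0.352 in the HP pools, with overlap. PSMB8 stood at 0.0936 and 0.0953 of PSMB5 in the LP pools and at 0.0957, 0.147 and 0.122 in the HP pools, where the highest LP and the lowest HP value were almost the same. The ratio of PSMB10 to PSMB7 was 0.0113 and 0.0199 in the LP pools and 0.00857, 0.0379 and 0.0111 in the HP pools, with overlap. Interferon response genes gave no parallel order: 9 matched genes summed to 36.2 and 51.7 RPKM in LP pools 1 and 2 and to 45.3, 51.0 and 28.3 RPKM in the HP pools. PTPRC, the pan-leukocyte surface marker, reached at most 0.0489 RPKM in an LP pool and 0.0505 RPKM in an HP pool. Other blood and immune markers were higher. CSF1R had 16.6 and 14.4 RPKM in the LP pools and 16.9, 15.1 and 15.7 RPKM in the HP pools, with overlap. CD3E had 2.30 and 2.00 RPKM in the LP pools and 1.81, 1.01 and 1.56 RPKM in the HP pools, without overlap. PSMB11, the form of the PSMB5 position found in the thymus, had 14 and 10 reads in the LP pools and 4, 6 and 6 reads in the HP pools. It shares 31 exon bases on the other strand with PSMB5, and the strand setting of the read counting is not known here.

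The base of the regulatory particle stood closer to its HP level. Over the 6 ATPases the median was 0.33 on the log2 scale, with 5 above 0, and PSMC6 alone lay below 0. Those 5 were higher in both LP pools than in every HP pool, as were 29.4% of all genes tested. PSMC3 had 36.6 and 53.2 RPKM in the LP pools and 34.1, 31.6 and 31.9 RPKM in the HP pools, a log2 fold change of 0.43 ± 0.18 (SE; limma, adjusted p = 0.131), and 0.16 without LP pool 2. PSMC2 had 59.3 and 68.1 RPKM in the LP pools and 51.6, 43.6 and 48.2 RPKM in the HP pools. In PSMC5 the pools were almost level, at 26.1 and 30.9 RPKM in the LP pools and 25.8, 25.5 and 24.9 RPKM in the HP pools, and its log2 fold change of 0.16 ± 0.13 (SE) was -0.034 with the length trend removed. PSMC6 had 18.0 and 16.3 RPKM in the LP pools and 19.6, 16.6 and 17.7 RPKM in the HP pools, with overlap, and its log2 fold change of -0.06 ± 0.14 (SE) turned to 0.0090 without LP pool 2 and 0.0022 without HP pool 1.

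The scaffolds of the base, on which ubiquitin receptors and the ATPase ring sit, had no member above 0. PSMD1 had 172 and 146 RPKM in the LP pools and 173, 178 and 185 RPKM in the HP pools, a log2 fold change of -0.17 ± 0.14 (SE). Both LP pools were below every HP pool, LP pool 1 by a margin of under 2 RPKM. That order was found for 29.3% of all genes tested. PSMD2 had 16.7 and 13.05 RPKM in the LP pools and 18.1, 15.2 and 13.05 RPKM in the HP pools, and its log2 fold change of -0.05 ± 0.18 (SE) was 0.12 without LP pool 2, 0.064 without HP pool 1 and 0.067 with the length trend removed. PSMD4, a receptor for ubiquitin chains between base and lid, stood apart from both scaffolds. It had 176 and 224 RPKM in the LP pools and 147, 126 and 107 RPKM in the HP pools, a log2 fold change of 0.66 ± 0.18 (SE; limma, adjusted p = 0.0837), and 0.48 without LP pool 2.

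The lid had the flattest profile of the large groups, with a median of 0.22 on the log2 scale over its 8 PSMD genes. For 5 of the 8, both LP pools lay above every HP pool, as did 29.4% of all genes tested. PSMD11, whose level is known to set proteasome assembly in human embryonic stem cells, had 219 and 234 RPKM in the LP pools and 207, 212 and 235 RPKM in the HP pools. The groups overlapped, and its log2 fold change of 0.06 ± 0.13 (SE) turned to -0.15 with quantile normalization. PSMD14, the enzyme that cuts the ubiquitin chain off the substrate, had 34.2 and 35.6 RPKM in the LP pools and 30.6, 27.2 and 26.9 RPKM in the HP pools, a log2 fold change of 0.30 ± 0.13 (SE; limma, adjusted p = 0.147). PSMD7, its partner in the lid, had the highest fold change of the 8 PSMD genes of the lid, with 34.2 and 49.3 RPKM in the LP pools and 29.5, 24.7 and 23.9 RPKM in the HP pools, a log2 fold change of 0.64 ± 0.19 (SE). PSMD6 stood at 0.32 ± 0.14 (SE) and PSMD8 at 0.43 ± 0.16 (SE). PSMD3, PSMD12 and PSMD13 lay between -0.09 and 0.14. An exon stretch of 506 bases of PSMD13 overlaps COX8B on the other strand.

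The chaperones that assemble the base had fold changes of either sign. PSMD10, also known as gankyrin, had 17.4 and 23.3 RPKM in the LP pools and 13.9, 9.58 and 12.4 RPKM in the HP pools, a log2 fold change of 0.72 ± 0.20 (SE; limma, adjusted p = 0.0832). It shares 422 exon bases with ATG4A on the other strand. PSMD9 had a log2 fold change of 0.36 ± 0.15 (SE). PSMD5 had 80.9 and 69.6 RPKM in the LP pools and 85.6, 80.0 and 81.4 RPKM in the HP pools, with overlap, a log2 fold change of -0.13 ± 0.13 (SE).

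**Figure D3:**
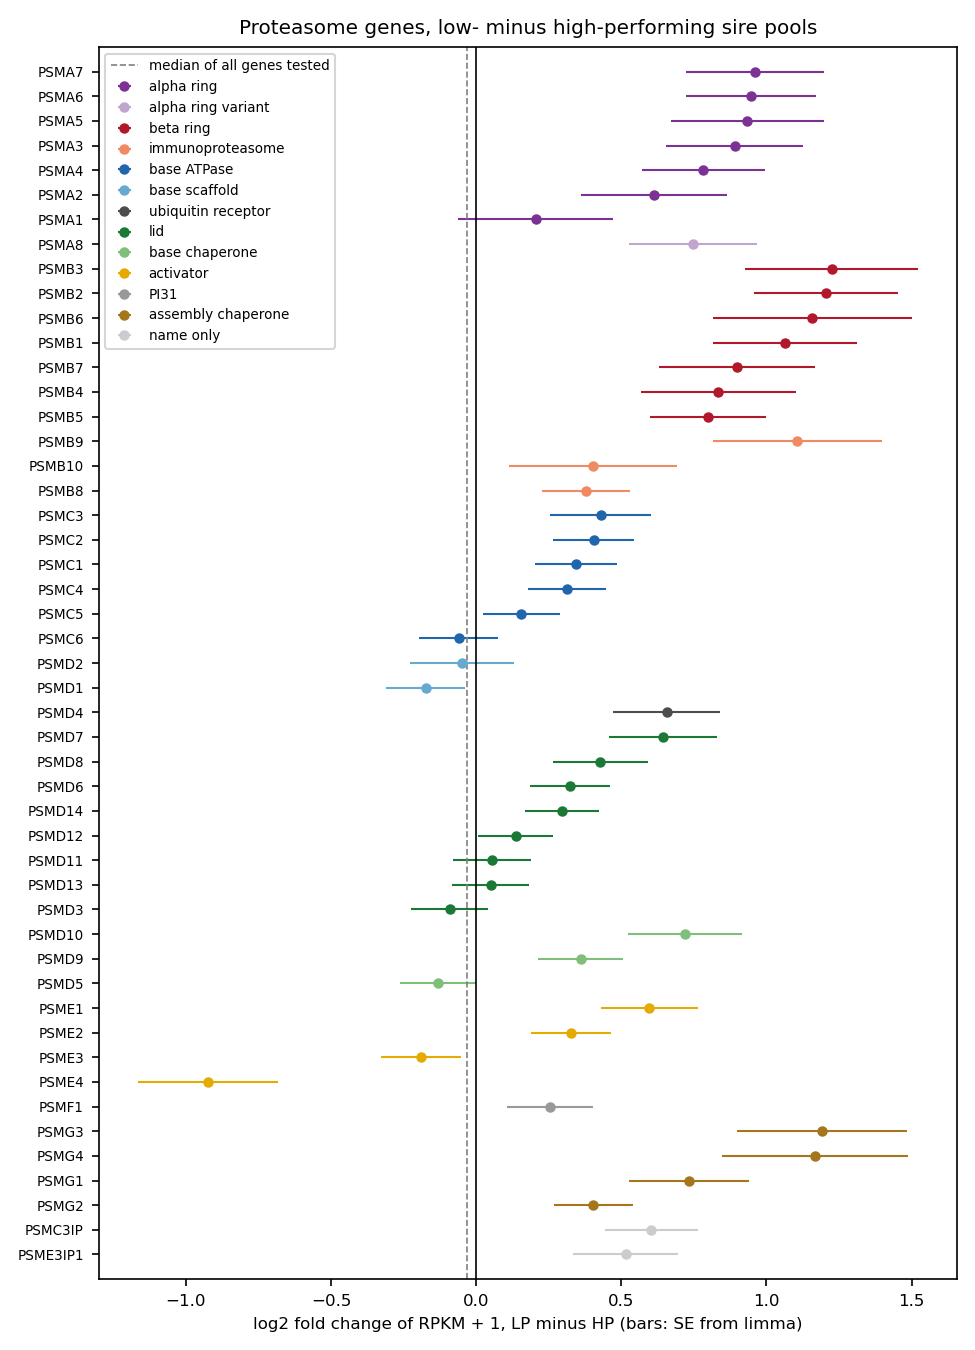
Log2 fold change of RPKM + 1, LP minus HP, of the 49 tested genes by their role, with bars for the limma standard error, a solid line at 0 and a dashed line at the median of all genes tested. PSMB3, PSMB2, PSMG3, PSMG4, PSMB6 and PSMB9 reach furthest to the right. The base scaffolds, PSMC6, PSMD3, PSMD5 and PSME3 lie just left of 0, and PSME4 is alone on the far left at -0.93.

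The alternative caps of the core particle split by gene. PSME1 and PSME2 together form the cap that interferon induces and that opens the gate for peptides. PSME1 had 13.5 and 18.9 RPKM in the LP pools and 10.7, 9.70 and 10.3 RPKM in the HP pools, a log2 fold change of 0.60 ± 0.17 (SE; limma, adjusted p = 0.0836). PSME2 had 11.2 and 11.99 RPKM in the LP pools and 9.36, 8.09 and 9.69 RPKM in the HP pools. Both lay above every HP pool in both LP pools, as did 29.4% of all genes tested. The log2 fold change of PSME2 was 0.33 ± 0.14 (SE), but -0.066 with the length trend removed. The ratio of PSME1 to PSME2 was 1.21 and 1.58 in the LP pools and 1.15, 1.199 and 1.06 in the HP pools.

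PSME4, known as PA200 and in mammals tied to the degradation of acetylated histones during sperm formation, was the member with the lowest fold change. It had 3.46 and 1.44 RPKM in the LP pools and 4.96, 5.43 and 5.44 RPKM in the HP pools, from 2451 and 968 reads in the LP pools and 4018, 2618 and 3516 reads in the HP pools. The HP pools lay close together, LP pool 1 was under all of them, and LP pool 2 was lower again. Both LP pools lay below every HP pool in 29.3% of all genes tested. The log2 fold change was -0.93 ± 0.24 (SE; limma, adjusted p = 0.0829). It was -0.49 without LP pool 2, -1.36 without LP pool 1 and -0.59 with the length trend removed, and PSME4 is the longest member, at 7169 bases. PSME3, a nuclear cap that works without ubiquitin, had 15.2 and 12.7 RPKM in the LP pools and 15.5, 15.8 and 16.9 RPKM in the HP pools, a log2 fold change of -0.19 ± 0.14 (SE). PSMF1, the regulator known as PI31, had 22.5 and 25.2 RPKM in the LP pools and 20.9, 17.3 and 21.4 RPKM in the HP pools, a log2 fold change of 0.25 ± 0.15 (SE).

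**Figure D4:**
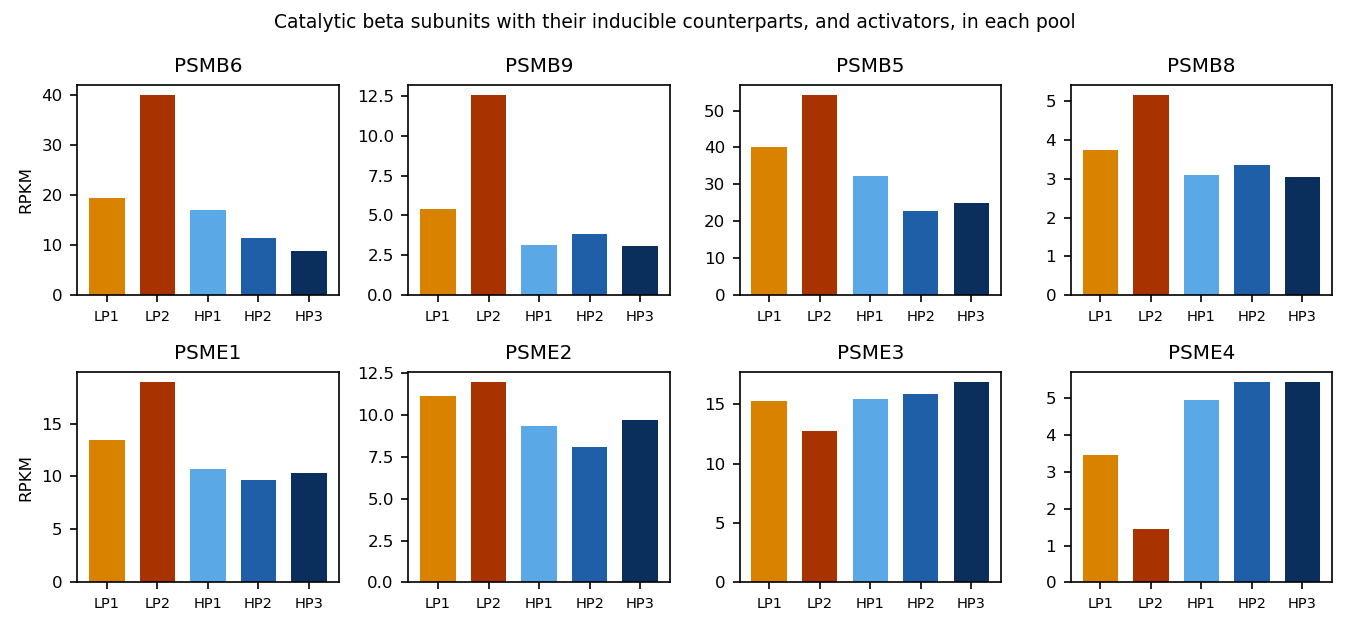
RPKM in each pool, 1 bar per pool with LP pools left of HP pools, of PSMB6 and PSMB5 beside their inducible counterparts PSMB9 and PSMB8, and of the 4 activators. LP pool 2 has the tallest bar in the beta subunits, PSME1 and PSME2 and the shortest in PSME3 and PSME4, where it reads 12.7 and 1.44 RPKM.

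All 4 chaperones that assemble the alpha ring were higher in both LP pools than in every HP pool, as were 29.4% of all genes tested. They work in pairs, PSMG1 with PSMG2 and PSMG3 with PSMG4. PSMG3 had 27.9 and 42.3 RPKM in the LP pools and 21.6, 11.4 and 12.3 RPKM in the HP pools, a log2 fold change of 1.19 ± 0.29 (SE; limma, adjusted p = 0.0829). PSMG4 had 17.6 and 37.5 RPKM in the LP pools and 13.9, 11.1 and 8.37 RPKM in the HP pools, a log2 fold change of 1.17 ± 0.32 (SE), and 0.64 without LP pool 2. PSMG1 was the most abundant of the 4, with 256 and 363 RPKM in the LP pools and 220, 161 and 174 RPKM in the HP pools, a log2 fold change of 0.73 ± 0.21 (SE). Its partner PSMG2 had 14.9 and 15.6 RPKM in the LP pools and 12.5, 10.8 and 10.5 RPKM in the HP pools, a log2 fold change of 0.40 ± 0.14 (SE). PSMG1 thus stood 17.3-fold and 23.3-fold above PSMG2 in the LP pools and 17.6-fold, 14.8-fold and 16.5-fold above it in the HP pools, with overlap.

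Both genes taken in by name stood higher in both LP pools than in every HP pool, as did 29.4% of all genes tested. PSMC3IP had 36.1 and 47.6 RPKM in the LP pools and 29.4, 24.8 and 26.9 RPKM in the HP pools, a log2 fold change of 0.60 ± 0.16 (SE). It shares 392 exon bases with MLX on the other strand. PSME3IP1 was the third most abundant gene of the 50, with 307 and 413 RPKM in the LP pools and 253, 220 and 278 RPKM in the HP pools. The median over the members was 0.43 with and without these genes.

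Because RPKM is scaled by length, the parts of the complex can be set side by side within a pool. The median level of the 14 standard core subunits was 72.4 and 123 RPKM in the LP pools and 56.2, 38.8 and 39.7 RPKM in the HP pools. The median of the 8 PSMD subunits of the lid, which leaves out the lid subunit SEM1, was 45.9 and 56.0 RPKM in the LP pools. In the HP pools it was 39.1, 35.3 and 39.9 RPKM. The ratio of core to lid was therefore 1.58 and 2.19 in the LP pools and 1.44, 1.10 and 0.995 in the HP pools, with every LP pool above every HP pool and LP pool 1 nearest to HP pool 1. Over the ATPases the same ratio was 1.70 and 2.25 in the LP pools and 1.43, 1.10 and 1.08 in the HP pools. The core genes are shorter than the lid genes, with median lengths of 1030 and 1899 bases. Over all genes tested the fold change fell with length (Spearman's rho -0.52), which scaling by length does not remove. The part of this trend in the ratios was not tested. All 14 core subunits were higher in LP pool 2 than in LP pool 1, where 40.7% of all genes tested were, and 13 of the 14 were highest in HP pool 1 among the HP pools, where the share of all genes was again 40.7%. The 14 core genes took 0.211% and 0.325% of reads in genes in the LP pools and 0.171%, 0.112% and 0.128% in the HP pools. An exact permutation test on a single value cannot give a p under 0.1 with 2 pools against 3, so these ratios were not tested.

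Among 31 measured genes that serve the proteasome from outside the naming pattern, POMP and SEM1 lay on the side of the core. This list was drawn up from textbook roles, with DDI2 not matched in the table. POMP, which helps the beta ring assemble, had 202 and 300 RPKM in the LP pools and 162, 115 and 138 RPKM in the HP pools, a log2 fold change of 0.84 ± 0.22 (SE; limma, adjusted p = 0.0829). SEM1, the smallest lid subunit, had 41.8 and 105 RPKM in the LP pools and 21.4, 12.4 and 23.3 RPKM in the HP pools, a log2 fold change of 1.80 ± 0.40 (SE). It had the highest fold change of the list, 1.14 without LP pool 2, and its listed length is 464 bases. ADRM1, a ubiquitin receptor of the base, had 76.9 and 97.8 RPKM in the LP pools and 66.1, 55.6 and 59.0 RPKM in the HP pools, a log2 fold change of 0.52 ± 0.16 (SE).

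The enzymes that trim ubiquitin on the proteasome were nearly level. UCHL5 had 33.0 and 34.2 RPKM in the LP pools and 31.1, 30.0 and 29.0 RPKM in the HP pools, and USP14 had 16.7 and 16.9 RPKM in the LP pools and 18.0, 15.2 and 16.0 RPKM in the HP pools. The log2 fold change of USP14 was 0.04 ± 0.13 (SE), and -0.014 without HP pool 2. NFE2L1, the transcription factor that raises proteasome genes when proteasome activity is short, had 18.8 and 13.9 RPKM in the LP pools and 20.0, 24.9 and 24.2 RPKM in the HP pools, a log2 fold change of -0.48 ± 0.17 (SE; limma, adjusted p = 0.109). Both LP pools were below every HP pool, as were 29.3% of all genes tested. NFE2L1 is 5925 bases long, and its log2 fold change was -0.19 with the length trend removed.

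The second highest fold change of the list, after SEM1, was that of RPS27A. RPS27A, which encodes ubiquitin joined to a ribosomal protein, had 169 and 287 RPKM in the LP pools and 110, 77.8 and 80.5 RPKM in the HP pools, a log2 fold change of 1.31 ± 0.25 (SE). ECPAS, a large adaptor of the proteasome, stood at -0.54 ± 0.19 (SE), and at -0.23 with the length trend removed. Over the list, 0 of 31 passed an adjusted p of 0.05 in limma, and the median was -0.19. Fold changes lay above 0 for 12 and below for 19, where 46.7% of all genes tested lay above 0 and 53.3% below. At an unadjusted p under 0.05 in limma, 7 stood higher and 9 lower, against 19% and 15.9% of all genes, so the share that stood higher was near that of all genes. RPS27A can share reads with near-identical copies, which makes its values uncertain.

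Fold changes varied with gene length, among the members as among all genes. Spearman's rho between log2 fold change and length was -0.77 across the 49 members, which share libraries and are not independent, and -0.52 across all 12448 genes tested. The 14 core genes are short, with a median of 1030 bases. In the length range that holds this value, the log2 fold change of all genes tested had a median of 0.33. PSMA3, PSMA5, PSMA6, PSMB1, PSMB3 and PSMB6 lie in the range of 751 to 1000 bases, where that median was 0.48. The 8 lid genes have a median of 1899 bases, and genes of 1501 to 2000 bases had a median of 0.10. Read against all genes of the same length range, 38 of the 49 members lay above the median of their range. With the trend over length removed from each pool, the median over the members was 0.29, that of the core 0.59, that of the lid 0.09 and that of the assembly chaperones 0.50. With the trend removed PSMB2 stood at 0.93 and PSMB5, which is 2127 bases long, at 0.79. Beyond this, the part of length in the differences was not tested.

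**Figure D5:**
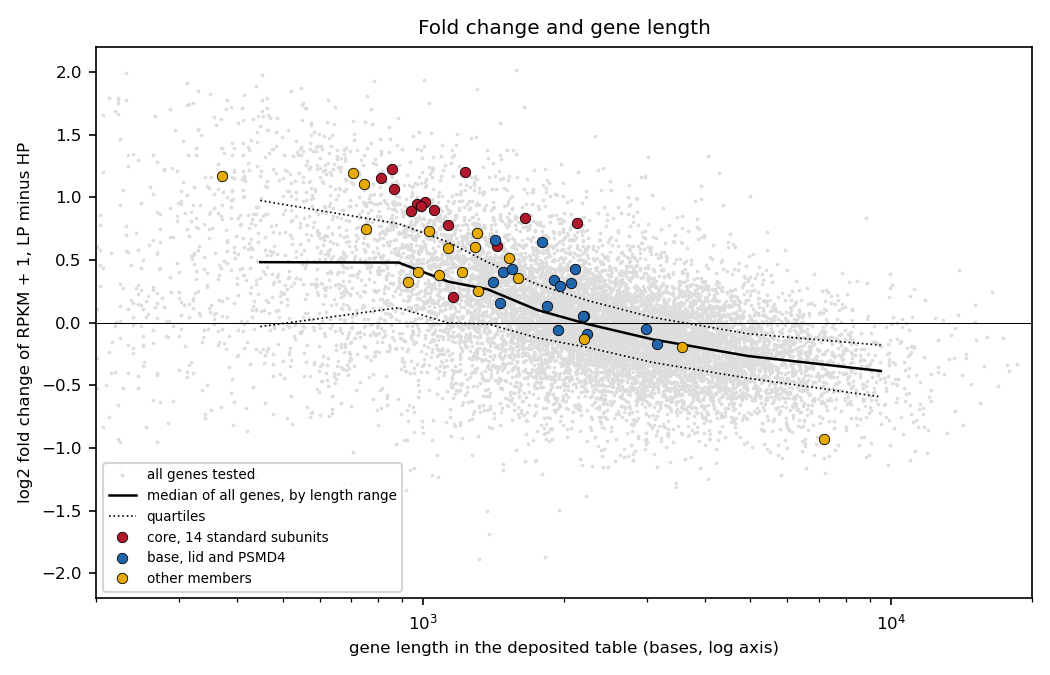
Log2 fold change of RPKM + 1, LP minus HP, against gene length on a log axis, for all genes tested in grey and the proteasome genes in colour, with a black line for the median and dotted lines for the quartiles of all genes by length range. The median of all genes goes down with length, most core subunits lie above the upper dotted line, and the base and lid subunits lie around or above the median, with PSME4 far below at 7169 bases.

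In the authors' deposited table, which came from a different test on the same pools, 22 tested members were higher and 1 was lower in the LP pools at an FDR under 0.05. In that table the same threshold held for 11% of the genes tested here in the higher direction and 5.07% in the lower, and for 5.51% and 2.45% of all 27607 genes. The 22 included 12 of the 14 standard core subunits, with PSMA1 and PSMA2 outside, and 3 of the 4 assembly chaperones. The authors' deposited table gave PSMB2 an FDR of 1.91e-05 and PSME4, the lower one, an FDR of 0.00956. With 2 LP pools, the sire class and whatever else set LP pool 2 apart cannot be told apart.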

How the data were processed

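Poly(A) RNA of embryo pools was sequenced from libraries that keep strand, per the labels' protocols. The submitters' processing notes name FastQC, featureCounts, edgeR and the build ARS-UCD1.2. For aligner, versions and strand setting, nothing was given in the sources used here. The authors deposited RPKM for every gene in each pool. The deposited table also holds the authors' log2 fold change, log2 abundance, test score (a likelihood ratio), p-value and FDR. The authors' log2 fold changes had the sign of LP minus HP in 99.9% of the 8452 genes with a mean RPKM of at least 5. In the deposited table RPKM times length in kilobases summed to 1000000 in every pool, and all values came out as whole reads within 1e-06, which gave the depths. For a gene of 1 kb, 3 reads amount to between 0.0265 and 0.0446 RPKM, a limit for counting error alone.

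Genes were fitted on log2(RPKM + 1) in limma 3.58.1 (R 4.3.3), its variance prior following the mean level, two-sided, with Benjamini-Hochberg adjustment over all genes. Members are named by their group's 2 highest and 2 lowest fold changes, from a fixed set of paired subunits, or, outside both, after their values were seen (PSMA3, PSMA4, PSMA5, PSMB1, PSMB4, PSMC2, PSMD3, PSMD6 to PSMD9, PSMD12, PSMD13). Of the partner genes the rule names, 1 is not reported here. The members and lists were chosen with earlier results of these data known. All 50 symbols matched RefSeq (assembly ARS-UCD2.0), from which no coordinates were taken. Alternatives were other pseudocounts, filters and scalings, limma voom on the reads, a loess trend over length (span 0.5) removed, a replicate block and each pool left out. The script was tested on simulated data. Figures used Python 3.11.15 and matplotlib 3.10.9.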

Additional observations from a re-analysis of the deposited data

How the results depend on the processing

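No member passed an adjusted p of 0.05 in limma with pseudocounts of 0.1 or 0.5, no filter, a mean RPKM of at least 5, quantile normalization, a trimmed-mean factor, voom on the reads, the length trend removed, or without HP pool 1, 2 or 3 or LP pool 2, and neither did any other gene. Without LP pool 1, 33 members and 5436 genes passed, so counts with 1 pool left out ran from 0 to 33 and from 0 to 5436. At an adjusted p under 0.1, 24 members and 2660 genes passed. With the replicate number as a block, which leaves HP pool 3 out of the contrast, 8 members and 833 genes passed. Whether the numbers pair the pools cannot be told here. Deviations of same-numbered pools from their group means correlated at -0.485 and -0.259 across genes. With 2 LP pools these deviations are exact opposites in LP, so the sign cannot decide. By the SD of the log2 difference, LP pool 1 and HP pool 1 were the closest pair (0.221). The median over the members ran from 0.29 with the length trend removed to 0.52 over these settings, and from 0.30 to 0.73 with 1 pool left out, the highest without LP pool 1. It was 0.43 without PSMC3IP, and without both genes taken in by name only, an alternative chosen after seeing the data.

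Of 596 fold changes of the 43 genes the naming rule takes that have a test over 14 settings, 545 kept their direction and side of the threshold, 39 passed the threshold in addition, and 12 changed sign. With the length trend removed these were PSMA1 (-0.10), PSMC5 (-0.034), PSMD2 (0.067) and PSME2 (-0.066). Without LP pool 2 they were PSMA1 (-0.26), PSMB10 (-0.0042), PSMC6 (0.0090) and PSMD2 (0.12), and without HP pool 1 PSMC6 (0.0022) and PSMD2 (0.064). PSMD11 turned to -0.15 with quantile normalization and USP14 to -0.014 without HP pool 2. With 1 pool left out, PSMA1 ran from -0.26 to 0.68, PSMB10 from -0.0042 to 0.81, PSMC6 from -0.13 to 0.0090, PSMD2 from -0.22 to 0.12 and USP14 from -0.014 to 0.10. The cause was not tested.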
